A study of Mus musculus with 4 samples.

Results

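Gcg, Pcsk2, Oxt and Avp were followed in the lenses of young mice with and without Tdrd7, which encodes an RNA granule component with Tudor domains and is needed for a clear lens. The 4 genes were chosen by gene symbol, and with their Tdrd7 null against control values in view, and all 4 had a row among the 10790 genes of the deposited table. Lenses were taken at postnatal day 4 from Tdrd7 -/- mice and from mice labelled wild type control, and each library held RNA pooled from 15 lenses. There were 2 libraries per genotype, so each value below stands on 2 pools. The sources used here name no strain, sex or targeted allele, nor the number of mice behind a pool.

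Gcg encodes proglucagon, Avp the vasopressin precursor and Oxt the oxytocin precursor. Each precursor enters the secretory pathway and is cut after pairs of basic residues into active peptides. Pcsk2 encodes prohormone convertase 2, which makes such cuts in islet alpha cells and in neurons. Proglucagon yields glucagon in the pancreas and the glucagon-like peptides in the gut. Vasopressin and oxytocin are made mainly by magnocellular neurons of the hypothalamus, and each precursor also holds a neurophysin that carries the hormone. The lens is not a known endocrine organ, and it was its RNA, not these peptides, that was measured here.

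All 4 genes lie on chromosome 2 (GRCm38). Gcg (ENSMUSG00000000394) runs from 62474530 to 62483650 on the minus strand, and its longest transcript has 6 exons. Pcsk2 (ENSMUSG00000027419) runs from 143546156 to 143816285 on the plus strand, with 12 exons. Oxt (ENSMUSG00000027301) runs from 130576173 to 130577054 on the plus strand and Avp (ENSMUSG00000037727) from 130580620 to 130582554 on the minus strand, with 3 exons each. The 3′ ends of Oxt and Avp thus face each other across 3565 nt. No annotated exon of another gene touches those of Gcg, Oxt or Avp. Exons of Pcsk2 share 260 nt with the antisense gene Pcsk2os1 and 99 nt with Pcsk2os2, and since the library kit did not mark strand, the level of Pcsk2 is uncertain to that extent.

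The 250 bases before each start are shown because Oxt and Avp, which lie side by side, differed in opposite directions, while Gcg, Pcsk2 and Oxt differed in the same direction. They come from RefSeq (GRCm38.p6), which held all 4 genes. Capitals mark matches, on either strand, to any of 5 short motifs. The core promoter box was searched as TATAAA. The E-box, bound by helix-loop-helix proteins, was searched as CANNTG. The cyclic AMP response half-site was searched as TGACG and the half-site of Maf proteins as TGCTGA. The half-site of nuclear receptors was searched as AGGTCA. No marked matches overlap.
Gcg, chr2:62483654-62483903, minus strand: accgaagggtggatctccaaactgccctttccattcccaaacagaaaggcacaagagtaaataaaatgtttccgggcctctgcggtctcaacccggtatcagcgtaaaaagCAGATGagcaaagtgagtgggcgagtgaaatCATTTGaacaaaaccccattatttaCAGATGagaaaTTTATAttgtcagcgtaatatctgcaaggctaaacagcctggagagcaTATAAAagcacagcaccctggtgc
Pcsk2, chr2:143545883-143546132, plus strand: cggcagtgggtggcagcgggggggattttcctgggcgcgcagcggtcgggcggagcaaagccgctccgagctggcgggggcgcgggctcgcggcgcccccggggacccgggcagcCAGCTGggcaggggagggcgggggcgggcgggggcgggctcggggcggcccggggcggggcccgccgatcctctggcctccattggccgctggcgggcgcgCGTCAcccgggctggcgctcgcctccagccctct
Oxt, chr2:130575919-130576168, plus strand: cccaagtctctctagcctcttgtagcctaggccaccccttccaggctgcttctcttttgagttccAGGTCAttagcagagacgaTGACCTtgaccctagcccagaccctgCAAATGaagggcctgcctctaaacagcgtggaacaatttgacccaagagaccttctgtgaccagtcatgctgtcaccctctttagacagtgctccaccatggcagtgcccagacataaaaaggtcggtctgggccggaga
Avp, chr2:130582589-130582838, minus strand: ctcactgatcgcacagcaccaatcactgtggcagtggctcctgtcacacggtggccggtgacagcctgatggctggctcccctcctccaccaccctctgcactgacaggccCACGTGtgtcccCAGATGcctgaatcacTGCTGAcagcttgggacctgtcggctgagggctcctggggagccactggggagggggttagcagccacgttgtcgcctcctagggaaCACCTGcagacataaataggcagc

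The 4 windows differ in base composition and share few of these letters. GC content was 44.8% for Gcg, 54.0% for Oxt, 62.4% for Avp and 82.4% for Pcsk2, against a median of 52.4% over 32851 windows of the same length, and the Pcsk2 window held 35 CpG pairs against a median of 6. Gcg had 2 matches to the core promoter box, the nearer starting 24 bases before the start, and 12.4% of all windows held one. Oxt had 2 matches to the nuclear receptor half-site (14.0% of windows) and Avp 1 to the Maf half-site (16.1% of windows). Pcsk2 had 1 match to the cyclic AMP response half-site (17.8% of windows). The E-box letters occurred in all 4 and in 66.2% of all windows. A match is a description of these letters, not a binding site.

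The values are scaled reads, which are read counts divided by 1 factor per library. The libraries held between 33920522 and 42767535 reads in the listed genes. Tdrd7 itself stood at 1188 and 972 scaled reads in control, against 165 and 96.6 in the null pools, as their labels have it. All 16 lens markers were measured, and 3 of them (Lim2, Foxe3 and Hsf4) fell by limma, where 7.88% of all tested genes were called lower. With the GC trend removed Foxe3 and Hsf4 lost that call, and Lim2 had no value.

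Gcg was by far the most abundant of the 4 for its length. Averaged over the libraries, it stood at 51.4 scaled reads per kb of its longest transcript, against 12.2 for Oxt, 11.0 for Avp and 0.405 for Pcsk2. The median over tested genes was 3.39 scaled reads per kb. Gcg lay between the 93.5th and the 97.1th percentile of tested genes per kb in the 4 libraries. Oxt and Avp lay between the 69.5th and the 86.8th percentile, and Pcsk2 between the 0.638th and the 12.8th. The neighbours Oxt and Avp cannot be ordered over all libraries, since Avp was the higher per kb in both control libraries and Oxt in both Tdrd7 null libraries.

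Gcg was higher in the Tdrd7 null lenses. It stood at 35.05 and 48.6 scaled reads in the control pools (replicates 1 and 2), against 66.2 and 73.6 in the null pools. Both Tdrd7 null pools were above both control pools, and the control pools differed from each other by more than counting error, with 95% intervals of 33.3 to 36.9 and 46.6 to 50.8. The means were 41.8 ± 9.60 and 69.9 ± 5.23 (SD, n = 2), a 1.67-fold difference. On the log2(scaled reads + 1) scale the Tdrd7 null minus control difference was 0.74 (SE 0.109). Each SE of a log2 difference given here is limma's, drawn toward that of other genes of like level. From each gene's own pools alone the SE was 0.243 for Gcg, 0.329 for Pcsk2, 0.253 for Oxt and 0.120 for Avp. In bulk RNA, a change in the number of cells that make a transcript and a change in its amount per cell cannot be told apart.

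Pcsk2, the convertase, was also higher, at a level close to the lowest in the table. Its control pools stood at 1.42 and 0.804 scaled reads, against 2.07 and 3.35 in the null pools, from 59, 34, 78 and 119 reads. The Tdrd7 null pools were again both above the control pools, but the 95% counting intervals of control replicate 1 (1.08 to 1.84) and Tdrd7 null replicate 1 (1.64 to 2.59) overlapped. The means were 1.11 ± 0.438 and 2.71 ± 0.902 (SD, n = 2), a 2.44-fold difference. The log2 difference was 0.81 (SE 0.178). At this level it depends on the pseudocount, and it was 1.22 with 0.1 and 0.33 with 5 in place of 1.

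Oxt was higher as well, by a smaller fold than Gcg or Pcsk2. Its control pools stood at 4.44 and 6.60 scaled reads, against 8.01 and 7.10 in the null pools. The groups were apart by little: control replicate 2 and Tdrd7 null replicate 2 had 95% counting intervals of 5.85 to 7.42 and 6.25 to 8.03. The means were 5.52 ± 1.53 and 7.55 ± 0.644 (SD, n = 2), a 1.37-fold difference, and the log2 difference was 0.41 (SE 0.134). It was 0.17 without control replicate 1 and 0.65 without control replicate 2, so its size moved with which control pool was used. With a pseudocount of 5 it was 0.26.

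Avp went the other way and was lower in the Tdrd7 null lenses. Its control pools stood at 9.17 and 8.02 scaled reads, against 4.42 and 3.83 in the null pools. Both control pools were above both Tdrd7 null pools, and no 95% counting interval of one genotype (8.27 to 10.1 and 7.19 to 8.92 in control) reached one of the other (3.77 to 5.14 and 3.21 to 4.53). The means were 8.59 ± 0.812 and 4.12 ± 0.415 (SD, n = 2), 2.08-fold lower in the Tdrd7 null lenses. The log2 difference was -0.90 (SE 0.103), and it was -0.57 with a pseudocount of 5.

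These differences chose the genes, so they are given as a description and not as tests. Among 10696 tested genes ordered by their log2 difference, Pcsk2 was 6th and Gcg 10th from the highest, Oxt 143rd from the highest and Avp 5th from the lowest. Over all tested genes 18.0% were called at a limma adjusted p under 0.05 (10.1% higher and 7.88% lower). In all 4 genes the genotypes did not overlap, nor did they in 61.5% of all tested genes (30.2% higher and 31.3% lower), and since the members were chosen on this contrast their count says nothing more.

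**Figure D1:**
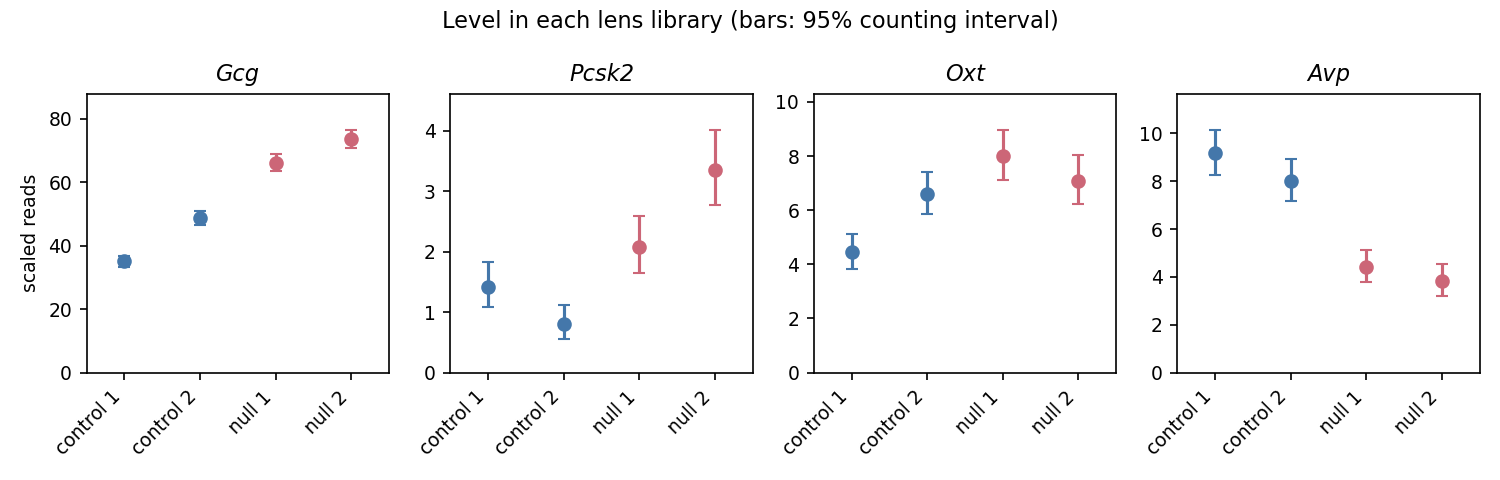
Scaled reads of Gcg, Pcsk2, Oxt and Avp in each library (control and Tdrd7 null replicates 1 and 2). Points are single pools of lenses and bars are exact 95% counting intervals; Gcg, Pcsk2 and Oxt are higher in both Tdrd7 null pools and Avp is lower in both.

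The ratio of Avp to Oxt reads within a library does not depend on how libraries were scaled. It combines differences on which both genes were chosen, so it is a description and not a further test. It was 2.07 and 1.22 in the control pools, against 0.552 and 0.540 in the null pools. Avp reads thus outnumbered Oxt reads in both control pools and were fewer than Oxt reads in both Tdrd7 null pools. Their 95% counting intervals ran from 1.73 to 2.46 and from 1.04 to 1.42 in control, and in the null pools from 0.456 to 0.667 and from 0.438 to 0.665. Per kb of transcript the ratio was 1.92, 1.13, 0.513 and 0.502 in the same order. The spread between the control pools was larger than counting error, while the Tdrd7 null pools differed by less than it. For Gcg over Pcsk2 the genotypes overlapped, with 24.6 and 60.5 in control against 31.9 and 22.0 in the null pools.

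**Figure D2:**
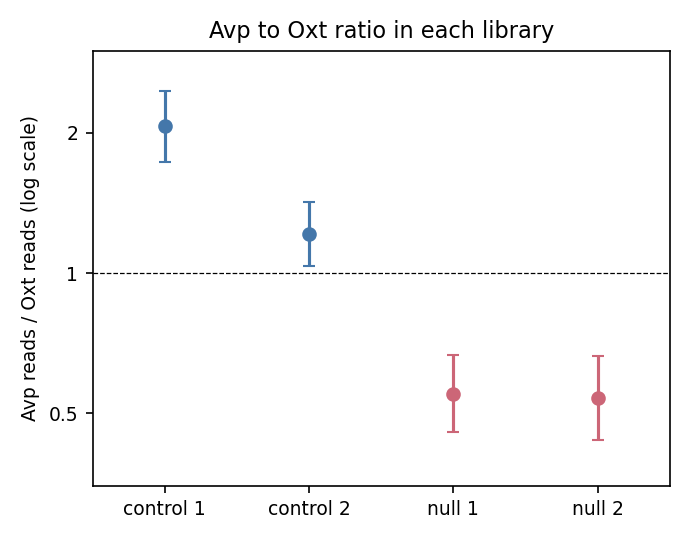
Avp reads divided by Oxt reads in each library, on a log axis with 95% counting intervals; the dashed line marks equal reads. Both control pools lie above it (2.07 and 1.22) and both Tdrd7 null pools below it (0.552 and 0.540).

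Differences between the genotypes ran with the GC content of transcripts across the whole table, so each gene was set beside others of its own base composition. Gcg and Pcsk2 transcripts had 44.8% and 46.9% GC and those of Oxt and Avp 60.5% and 65.7%, against a median of 49.6%. The 2067 genes within 2 percentage points of Gcg had a median log2 difference of 0.09, and 2242 such genes around Pcsk2 had a median of 0.04. Around Oxt the median over 709 genes was -0.19, opposite in sign to its own 0.41. Around Avp the median over 45 genes was -0.29, the same sign as its own -0.90. Once the dependence on GC content and length had been taken out of every library, Gcg stood at 0.56, Pcsk2 at 0.78, Oxt at 0.46 and Avp at -0.77. All 4 kept their direction, and Oxt alone moved further from 0. The part of GC content in these differences was not tested beyond this correction.

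**Figure D3:**
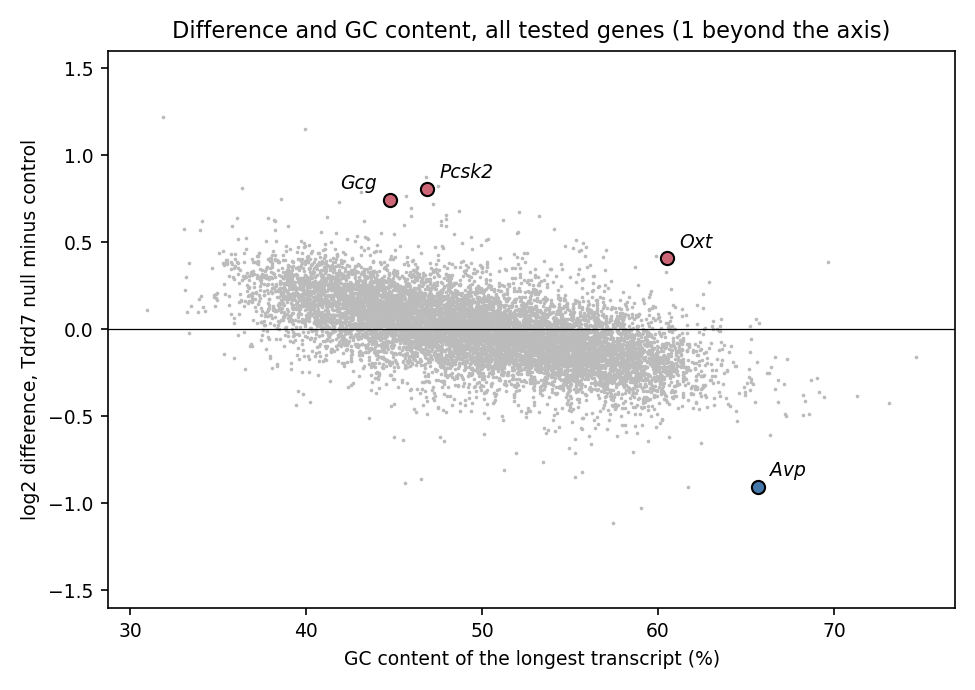
Log2 difference (Tdrd7 null minus control) against GC content of the longest transcript for each tested gene, with 1 gene beyond the axis. The cloud slopes down with GC content, and Oxt lies above it at a GC content where most genes are below 0, near Avp in GC content and opposite to it in direction.

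The other genes on chromosome 2 show what the surroundings of each gene did. Over the chromosome 10.4% of 859 tested genes were called higher and 7.92% lower, near the 10.1% and 7.88% of all genes. Around Oxt and Avp, 15 genes within 500 kb were tested and 0 were called by limma (5 at an unadjusted p under 0.05). Their median log2 difference was -0.10, with a range from -0.30 to 0.19. Over all 10696 tested genes 3538 had an unadjusted limma p under 0.05. The nearest tested gene on the Oxt side, Mrps26 of the mitochondrial ribosome, lay 7.48 kb away and stood at 53.6 and 55.3 scaled reads in control, against 51.6 and 59.3 in the null pools (log2 difference 0.02, SE 0.0673, limma adjusted p = 0.851). The nearest on the Avp side, the ubiquitin ligase gene Ubox5, lay 7.45 kb away and stood at 0.05 (SE 0.0996, limma adjusted p = 0.755), although it shares 1966 nt of exon with Fastkd5. The log2 differences of Oxt and Avp lay outside the range of all 15 neighbours, in opposite directions. Since Oxt and Avp were chosen on this contrast and the neighbours were not, this only describes their values.

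Pcsk2 lay among genes that were partly higher too. Of 6 tested genes within 500 kb, 4 rose: Snrpb2, a spliceosomal protein (log2 difference 0.31), Dstn, an actin-depolymerising factor (0.24), Snx5, a sorting nexin (0.31), and Mgme1, a mitochondrial exonuclease (0.34). Their limma adjusted p were 0.0436, 0.00862, 0.00396 and 0.0315, and Snx5 and Mgme1 share 206 nt of exon on opposite strands. With the GC trend removed 2 genes were called, Snx5 at 0.20 and Rrbp1, a ribosome-binding protein of the endoplasmic reticulum, at 0.22 (limma adjusted p = 0.0448 and 0.0311). Mgme1 then stood at 0.32, close to its first value, but was not called (limma adjusted p = 0.0842), and Dstn and Snrpb2 stood at 0.13 and 0.07. Snx5 was called without each library in turn, while Snrpb2 ran from 0.15 without Tdrd7 null replicate 2 to 0.47 without Tdrd7 null replicate 1, and Mgme1 stood at 0.22 with a pseudocount of 5. Over the 21 tested neighbours of both loci 4 were called, 1 when either control pool was left out and 2 without Tdrd7 null replicate 2. Leaving out Tdrd7 null replicate 1 gave 4 higher and 2 lower, and scaling without the crystallins 3 higher and 2 lower. With a limma prior that did not follow the mean level Snx5 lost its call (limma adjusted p = 0.0631). The gene next to Pcsk2, 10.2 kb away, is Bfsp1, which encodes the lens beaded filament protein filensin. It stood at 8511 and 8919 scaled reads in control, against 9793 and 9657 in the null pools, and was not called (0.16, SE 0.0908, limma adjusted p = 0.244).

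Around Gcg no comparison of this kind could be made. The annotation has 6 other protein-coding genes within 500 kb, and none of them was analysed here. The nearest tested genes were Psmd14, a proteasome subunit gene 674 kb away, which rose by a log2 difference of 0.27 (SE 0.0608, limma adjusted p = 0.0105), and Fign on the other side, which was not called (0.06, limma adjusted p = 0.596). Psmd14 stood at 0.09 with the GC trend removed and lost its call, and it was called in 1 of the 4 fits that left out a library, the one without Tdrd7 null replicate 1.

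**Figure D4:**
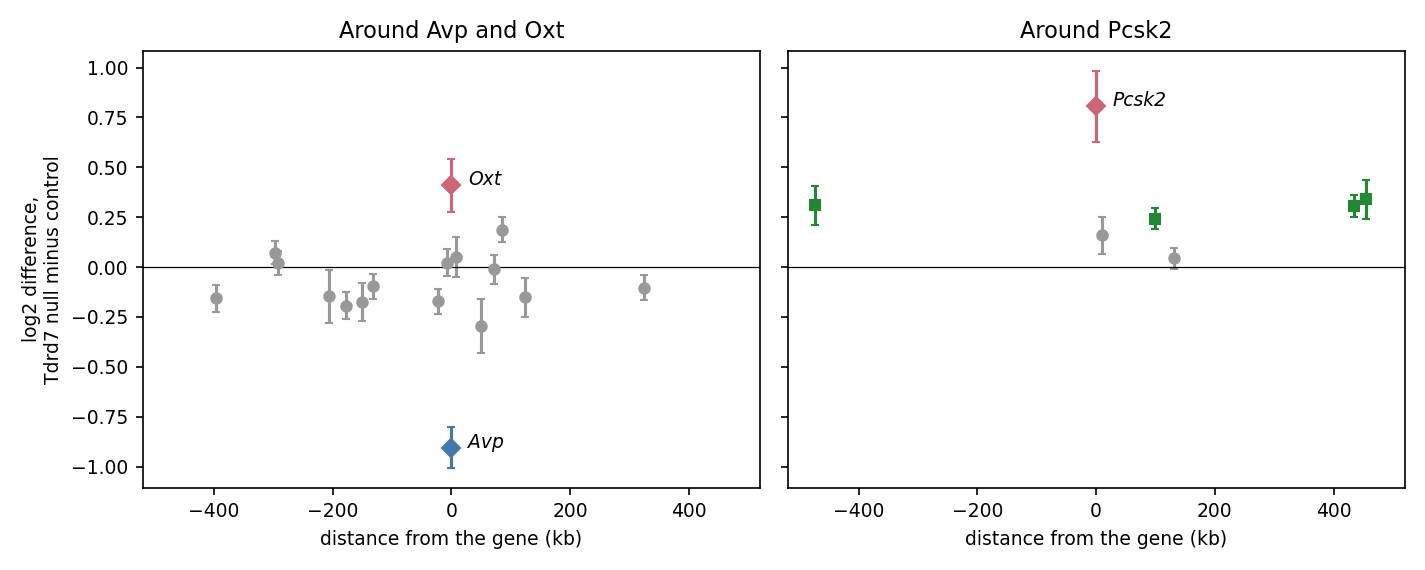
Log2 difference with its SE for tested genes within 500 kb of Avp and Oxt (left) and of Pcsk2 (right), by distance from the gene in kb; diamonds are Oxt, Avp and Pcsk2, green squares are called genes and grey points are not called. No neighbour of Avp and Oxt is called, and 4 of the 6 around Pcsk2 are higher.

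The machinery that makes, stores, senses and breaks down such peptides was partly measured. From 7 lists chosen by function, 47 genes other than the 4 were tested, of which 6 rose and 4 fell. That is near the background of 18.0% called over all genes, and Calca, among those that rose, was tested only because of its null pools. With the GC trend removed 2 of the 47 were called, Ptprn2 and Ide, against a background of 3.28% of all genes (1.95% higher and 1.33% lower). With either control pool left out, fewer genes were called, both in the lists and over all genes.

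Among enzymes that cut and trim prohormones, 14 of 15 listed genes were tested, 2 rose and 2 fell, with a median log2 difference of 0.0017 against -0.005 over all genes. Scg5 encodes 7B2, the chaperone that pro-PC2 needs to become active, and it rose. It stood at 2.29 and 2.37 scaled reads in control, against 3.17 and 3.49 in the null pools (log2 difference 0.38, SE 0.113, limma adjusted p = 0.0362), and the difference was 0.18 with a pseudocount of 5. Qpct, the cyclase that makes amino-terminal pyroglutamate, rose by 0.27 (SE 0.0609, limma adjusted p = 0.0103). Furin, the general convertase of the trans-Golgi, fell from 34.4 and 32.4 to 26.3 and 24.8 scaled reads (-0.38, SE 0.0645, limma adjusted p = 0.00311). Pcsk1n encodes proSAAS, an inhibitor of prohormone convertase 1, and fell by 0.30 on the log2 scale (limma adjusted p = 0.0325). Furin shares 118 nt of exon with Gm44851 and Pcsk1n 135 nt with Eras, both on the opposite strand, whose reads these libraries cannot separate.

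These 4 calls were not equally stable. With the GC trend removed each lost its call, with limma adjusted p between 0.0699 and 0.291. Each also lost it with a limma prior that did not follow the mean level. Furin was called without each library in turn, Qpct was not called without control replicate 2, and Scg5 and Pcsk1n were each called in 1 of those 4 fits, the one without Tdrd7 null replicate 1. The convertases Pcsk4, Pcsk5, Pcsk6 and Pcsk7 were not called, and Pcsk1 was not analysed here. Carboxypeptidase E (Cpe), which trims the basic residues after the cut, was the most abundant of the list at 149 and 144 scaled reads in control, against 154 and 160 in the null pools (0.10, limma adjusted p = 0.195). Pam, the amidating enzyme, stood at 0.19 and was not called (limma adjusted p = 0.0625).

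Of 22 genes of granins and granule release 11 were tested and 1 rose. Ptprn2, which encodes phogrin, a membrane protein of dense-core granules, stood at 2.56 and 2.58 scaled reads in control, against 4.18 and 4.93 in the null pools. The log2 difference was 0.63 (SE 0.112, limma adjusted p = 0.00372) and 0.33 with a pseudocount of 5, and Ptprn2 was called without each library in turn and with the GC trend removed. Ptprn2 lost its call (limma adjusted p = 0.051) with a limma prior that did not follow the mean level, where 16 of all tested genes were called. The paralog of Ptprn2, Ptprn, stood at 0.20 and was not called (limma adjusted p = 0.308). The granin genes Chga, Chgb, Scg2 and Scg3 were not analysed here. The most abundant of the list, the vesicle protein gene Vamp2, stood at 0.02 (limma adjusted p = 0.85).

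Of the 8 receptors of these peptides and of the related incretin, Gipr alone was tested. It stood at 1.35 and 2.37 scaled reads in control, against 1.68 and 2.06 in the null pools, and was not called (log2 difference 0.02, limma adjusted p = 0.936). The receptors for glucagon, the glucagon-like peptides, vasopressin and oxytocin were not analysed here. Of 9 peptidases that degrade such peptides 7 were tested, 2 rose and 1 fell, where 10.1% of all tested genes were called higher and 7.88% lower. Ide, insulin-degrading enzyme, which also cleaves glucagon, rose from 85.8 and 83.8 to 104 and 109 scaled reads (0.33, SE 0.0536, limma adjusted p = 0.00253), and was called without each library in turn and with the GC trend removed. Ide lost its call (limma adjusted p = 0.0578) with a limma prior that did not follow the mean level. Mme, which encodes neprilysin, rose by 0.22 (limma adjusted p = 0.0261) and Ece1, endothelin-converting enzyme, fell by 0.19 on the log2 scale (limma adjusted p = 0.0331). Ece1 was called in none of the fits that left out a library and Mme in 1 of 4. Neither was called with the GC trend removed, and Mme was not called with scaling without the crystallins.

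Other peptide hormone genes were few. Of 56 in the list 4 were tested and 1 rose. Calca, the gene of calcitonin and CGRP, stood at 0.820 and 0.828 scaled reads in control, against 1.57 and 1.58 in the null pools (log2 difference 0.50, SE 0.133, limma adjusted p = 0.0234). Both control values of Calca lay below the minimum mean of 1 scaled read, so it was tested only because of its null pools. At this low level the difference was 0.86 with a pseudocount of 0.1 and 0.17 with 5. It was not called with the GC trend removed, and among the fits that left out a library it was called in the one without Tdrd7 null replicate 1 alone. Sct, the gene of secretin, a relative of glucagon, stood at 0.08 (limma adjusted p = 0.646), Nmb at 0.06 (limma adjusted p = 0.747) and Igf2 at -0.23 (limma adjusted p = 0.097). Igf2 stood at -0.08 without control replicate 1 and at -0.38 without control replicate 2, where it was called (limma adjusted p = 0.0416), and it was also called with the replicate number as a block (limma adjusted p = 0.021). Nmb shares 163 nt of exon with Sec11a and Igf2 3596 nt with Gm49394, both on the same strand, so their values are uncertain. Per kb these 4 genes averaged between 1.21 and 5.63 scaled reads, below the 51.4 of Gcg.

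Several regulators known to act on the glucagon gene in islets are also lens regulators. Of 17 listed genes 8 were tested, 0 rose and 1 fell by limma (3 in either direction at an unadjusted p under 0.05). The background for such an unadjusted limma p was 3538 of all 10696 tested genes. Tcf7l2, an effector of Wnt signalling, fell from 4.99 and 4.61 to 3.14 and 3.89 scaled reads (log2 difference -0.37, SE 0.113, limma adjusted p = 0.0401). With the GC trend removed it stood at -0.40 and was not called (limma adjusted p = 0.0688), and it was called in 1 of the 4 fits that left out a library, the one without Tdrd7 null replicate 2. With a pseudocount of 5 it stood at -0.20. Pax6, which binds the glucagon promoter in alpha cells and is needed for the eye, stood at 106.5 and 111.6 scaled reads in control, against 110.1 and 109.9 in the null pools (0.01, limma adjusted p = 0.891). Maf, the c-Maf gene of lens fiber differentiation, stood at 0.17 and was not called (limma adjusted p = 0.0746). It stood at 0.09 without Tdrd7 null replicate 2, and without Tdrd7 null replicate 1 at 0.25 and was called (limma adjusted p = 0.00858). Maf shares 440 nt of exon with Gm15655 on the opposite strand. Of 6 regulators of magnocellular neurons Arnt2 (-0.22) and Creb3l1 (0.11) were tested and 0 were called by limma (1 at an unadjusted p under 0.05), although Arnt2 was called with scaling without the crystallins (-0.26, limma adjusted p = 0.047).

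**Figure D5:**
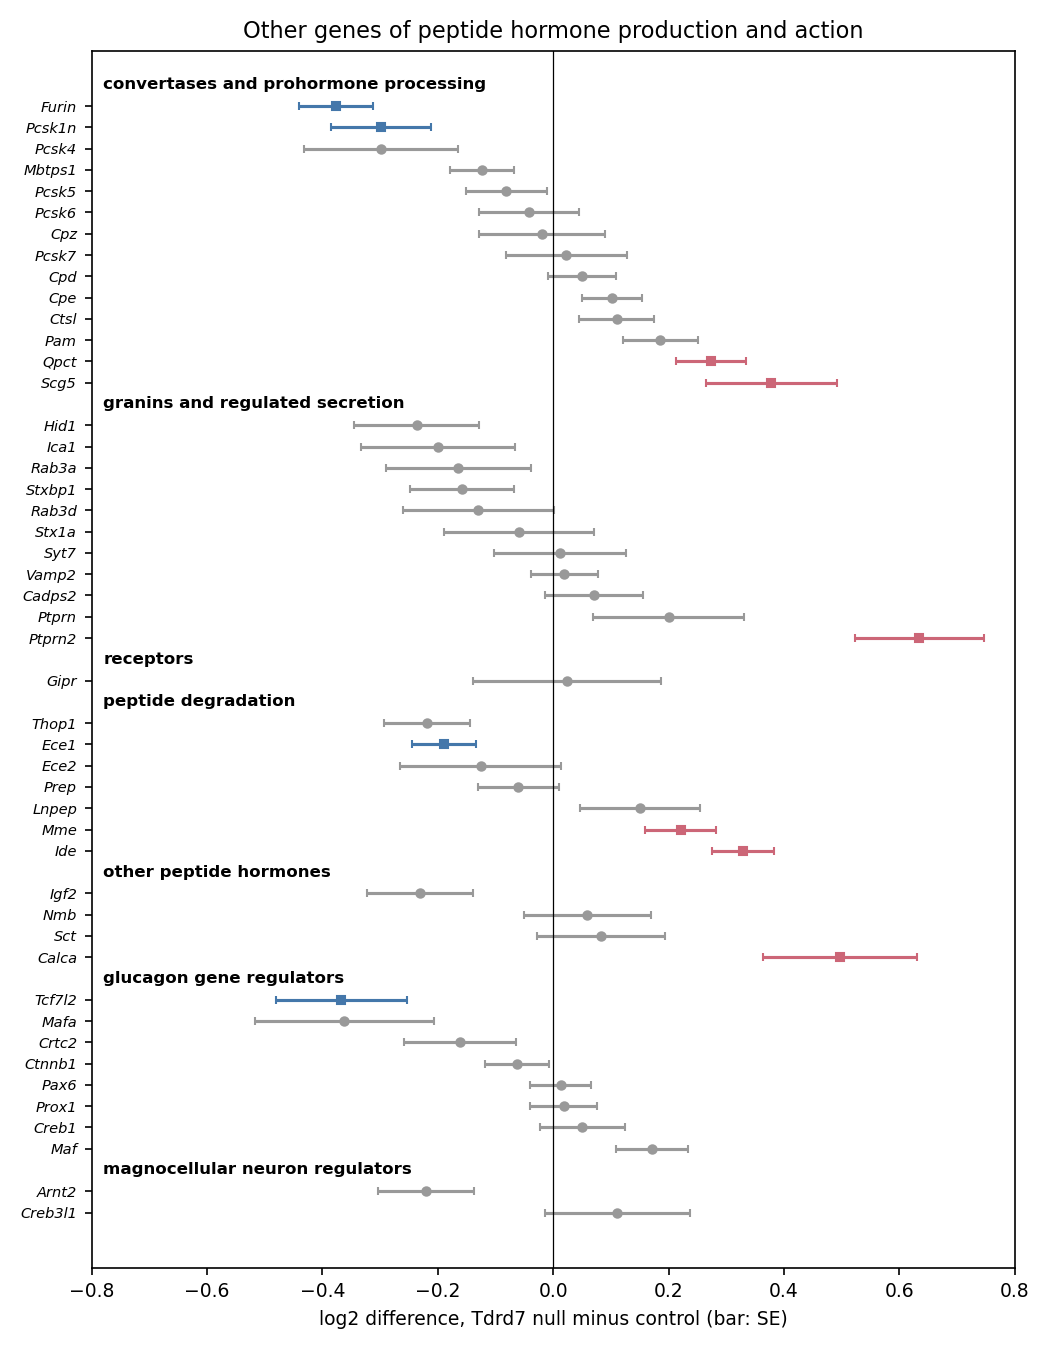
Log2 difference (Tdrd7 null minus control) with its SE for each tested gene of the 7 lists other than Gcg, Pcsk2, Oxt and Avp; red squares were called higher, blue squares lower, and grey points were not called. Ptprn2 (0.63) is the highest and Furin (-0.38) the lowest, and most genes lie within 0.4 of 0.

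Markers of cells in which these hormones are usually made were sparse. Of 12 islet endocrine markers Abcc8 alone was tested, and it was lower in the Tdrd7 null lenses (66.3 and 64.2 in control, 55.9 and 55.5 in Tdrd7 null, limma adjusted p = 0.0152). Its call was lost with the GC trend removed. Insulin, somatostatin and Iapp genes were not analysed here. Of 12 neuron markers 3 were tested, and their summed level was 21.2 and 22.3 scaled reads in control, against 28.4 and 27.6 in the null pools. Most of that sum was Map2, at 17.4 and 18.3 in control, against 23.7 and 22.7 in the null pools. Map2 (0.36, limma adjusted p = 0.00453) and Elavl4 (0.48, limma adjusted p = 0.0217) rose, where 10.1% of all tested genes were called higher. With the GC trend removed Map2 alone kept its call, and it shares 124 nt of exon with Gm10558 on the opposite strand. Rbfox3 was not called (0.01, limma adjusted p = 0.98). Tubb3, Elavl2, Elavl3, Snap25, Syt1, Nefl, Nefm, Stmn2 and Gap43 were not analysed here. Of 16 markers of the retina and its pigment cells and 11 of blood none was analysed here. Of 10 endothelial markers 9 were tested and 0 were called by limma (0 also by the unadjusted p), and they summed to 28.8 and 19.8 in control, against 23.4 and 29.7 in the null pools. The part of neuronal RNA in the differences of Gcg, Pcsk2, Oxt and Avp was not tested.

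The genes whose profile over the 4 libraries was most like each member were found by the Euclidean distance between log2 values centred on their own mean. For Gcg these were Poln (distance 0.11), Rpl39 (0.19) and Lsm5 (0.23), where a gene with equal values in all libraries would be at 0.82. Poln shares 108 nt of exon with Haus3 on the same strand and Rpl39 has processed copies, so both are uncertain. For Pcsk2 they were Uox (0.25), Atp13a5 (0.26) and Arntl2 (0.27), against 0.93 for a flat profile. For Oxt they were Nrip3 (0.05), Gadd45b (0.10) and Igfbp5 (0.12), against 0.54, and in each of these 3 genes control replicate 1 was the lowest and Tdrd7 null replicate 1 the highest, as in Oxt. For Avp they were Chrna4 (0.14), Bgn (0.22) and Wnk2 (0.25), against 0.92. Among the members themselves Gcg and Oxt were closest, at 0.40, with 60 genes nearer to Gcg than Oxt was. Oxt and Avp, the neighbours, were 1.39 apart. With 4 libraries these distances only describe the profiles.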

How the data were processed

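The deposited values are a signal per gene and library. The submitters' processing notes name TopHat2 2.0.9, Trimmomatic, Cuffnorm and Cufflinks and the build GRCm38 (mm10). The sources used here do not name the counting tool or the scaling step. Each value in a library lay within 0.01 read of a whole multiple of 1 step, so reads were recovered for counting intervals, which are exact (Poisson) at 95%, or normal on the log scale for ratios, and cover counting error only. The labels give the 2 libraries per genotype as biological replicates but not the animals behind them, so p-values concern pools and not animals. Each gene gave 2 residual degrees of freedom and the limma prior 11.1. The variance behind a p-value thus came mostly from other genes.

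The 10696 genes averaging 1 scaled read or more (all 4 members among them) were tested on log2(scaled reads + 1). The test was limma 3.58.1 (R 4.3.3), two-sided, whose prior followed the mean level, with Benjamini-Hochberg adjustment over all of them. The fit was tested on simulated data, with equal dispersion in every gene and no GC trend. There it recovered 24% of 1.25-fold and 72% of 1.50-fold changes, and 4.7% of its calls were false. The deposited values do carry a GC trend, so this does not measure their error rate. GC content and length came from GENCODE M21 for 10750 genes, and the trend on both was removed with splines of 5 degrees of freedom. Named were list genes that passed (at most 6 a list by p) and the 3 most abundant, the nearest neighbours and the 3 nearest profiles. Any other named gene was chosen after its values were seen. The members and lists were chosen with earlier results of these data known, and some list genes are not reported here and were left out of the lists' counts. Counting intervals used SciPy 1.17.1.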

Additional observations from a re-analysis of the deposited data

How the results depend on the processing

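No alternative turned the direction of Gcg, Pcsk2, Oxt or Avp. Without 1 library in turn their log2 differences ran from 0.51 to 0.97, 0.56 to 1.06, 0.17 to 0.65 and -0.99 to -0.82. With pseudocounts of 0.1 and 5 Pcsk2 stood at 1.22 and 0.33 and Avp at -1.04 and -0.57, and Avp was at -0.77 with the GC and length trend removed, with or without the replicate block. Pcsk2 was below a minimum mean of 5. Counts of calls depended more on the processing. Over all genes the 1920 calls became 350 with the GC and length trend removed, 408 with it and the replicate block together, 16 without the intensity trend of the prior, and 431 to 2196 without 1 library. In the same order the 10 list calls became 2, 2, 0 (limma, 17 at an unadjusted p under 0.05) and 4 to 9, and the 4 calls near members on chromosome 2 became 2, 2, 0 (limma, 6 at an unadjusted p under 0.05) and 1 to 6. Without the intensity trend of the prior, 3229 of all 10696 tested genes had an unadjusted limma p under 0.05. Scaling without the crystallins gave 768 genes higher and 1262 lower against 1077 and 843, and moved the median of all genes from -0.005 to -0.04. The labels link same-numbered libraries by their number alone. With 2 libraries per genotype the correlation of their deviations (-0.151) cannot show whether they were paired. The replicate block gave 2117, 11 and 5 calls. A crossed pairing, chosen after seeing the data as was the block with the trend removed, gave 3036, 16 and 8. A count model (edgeR) was planned and not run. Pcsk2 rested on 34 to 119 reads a library, which limits its precision.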
